A study of Mus musculus with 12 samples.

Results

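The transcripts described here encode the receptors through which cells of the innate immune system recognize lipopolysaccharide (LPS) and related microbial products, in cultures of primary mouse adult fibroblasts (MAFs) treated with thymol. The 10 genes, *Cd14*, *Tlr4*, *Ly96*, *Cd180*, *Ly86*, *Tlr2*, *Tlr7*, *Tlr13*, *Myd88* and *Unc93b1*, were chosen by name, with the difference between thymol and DMSO already known for some of them, among them *Cd14* and *Cd180*. All 10 were present among the 10697 genes of the table. Because of this choice, the fold changes and adjusted p-values of the 10 genes describe the fit over all genes and are no independent test of the group.

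MAFs were grown out of biopsies of wild-type C57BL6/j mice and exposed for 24 h to 100 µM thymol, a phenolic monoterpene of thyme and oregano, or to the solvent DMSO in equal volume. There were 6 libraries with either treatment, and the labels number them 1 to 6. The labels do not say whether libraries came from separate mice or cultures, so p-values measure the spread between these libraries only. The libraries were of the QuantSeq type, in which each polyadenylated transcript is read near its 3′ end, so that a read stands for a transcript largely irrespective of its length. Values are log2 CPM, the reads of a gene scaled to a common library total, and differences are log2 fold changes, thymol minus DMSO.

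LPS, the outer membrane glycolipid of Gram-negative bacteria, is passed by CD14, a membrane-anchored lipid-binding protein, to a complex of Toll-like receptor 4 (TLR4) and its soluble partner MD-2, the product of *Ly96*. RP105, the product of *Cd180*, resembles TLR4 outside the cell but lacks the intracellular signaling domain. It pairs with MD-1, the product of *Ly86*, in the way TLR4 pairs with MD-2, and is known for restraining TLR4 in macrophages and for promoting activation in B cells. TLR2 recognizes bacterial lipoproteins at the cell surface, whereas TLR7 and TLR13 recognize RNA in endosomes, to which they are carried by the chaperone UNC93B1. The adaptor MyD88 relays the signal of all of these Toll-like receptors.

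The libraries held between 5435985 and 9049796 recovered reads. The table held 13 of 15 fibroblast markers (*Lum* and *Fap* were missing), at a median level of 8.35 log2 CPM. It also held 19 of 20 macrophage markers, at a median level of 7.99, so that these fibroblast cultures carried macrophage transcripts as well. The medians cover different genes and do not give the share of either cell type. Of the 45 markers listed for 6 other cell types (B cells, T and NK cells, dendritic cells, neutrophils, endothelial cells and keratinocytes) 5 were in the table. Of the 8 B cell markers, *Blnk* was the 1 gene in the table. The summed level of the macrophage markers, taken as their mean log2 CPM, ranged from 8.24 to 8.36 in the thymol libraries and from 8.25 to 8.32 in the DMSO libraries. The means differed by -0.0039 (exact two-sided permutation test, p = 0.848). The mean of the fibroblast markers ranged from 8.51 to 8.62 with thymol and from 8.59 to 8.71 with DMSO, a difference of -0.10 (exact two-sided permutation p = 0.0043). These 13 markers went both ways, with log2 fold changes from -0.54 to 0.33. The collagen genes *Col1a1* and *Col3a1*, both lower, were the 2 with a limma adjusted p under 0.05. The part of these cell types in the results below was not tested, and fewer cells of a type cannot be told apart from less RNA per cell in bulk cultures.

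In the DMSO cultures, the 10 transcripts spanned more than 3 log2 units. *Cd14* (7.55 ± 0.089 log2 CPM, SD, n = 6) and *Unc93b1* (7.46 ± 0.15) were the most abundant, above 91.2% and 90.5% of all genes. Their ranges overlapped, although *Cd14* was the higher of the pair in 5 of 6 libraries. *Cd180* followed at 6.26 ± 0.18, below every *Unc93b1* value, and *Myd88* at 6.01 ± 0.21. *Tlr13* (5.53 ± 0.14), *Ly96* (5.33 ± 0.16) and *Tlr7* (5.04 ± 0.12) formed a middle group in which the ranges of neighbors overlapped. *Tlr2* (4.54 ± 0.27) overlapped the range of *Tlr7* while lying below it in 6 of 6 libraries. The signaling receptor *Tlr4* (4.13 ± 0.097) and the RP105 partner *Ly86* (4.06 ± 0.36) were the least abundant and could not be ordered, since *Tlr4* was the higher in 3 of 6 libraries. Thus the co-receptor CD14 had a mean of 187 CPM, where the receptor it serves had 17.5 CPM.

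With thymol, limma called 238 genes of the whole table (2.22%) at a Benjamini-Hochberg threshold of 0.05, 70 higher (0.654%) and 168 lower (1.57%), and 180 genes (1.68%) had thymol and DMSO values that did not overlap. Of the 10 receptor-complex genes, 3 passed, 1 higher (*Cd180*) and 2 lower (*Cd14* and *Tlr2*), and the same 3 had groups that did not overlap. The median log2 fold change of the 10 was -0.0058, beside 0.0026 over all genes. The other 7 were at adjusted p-values between 0.615 and 0.995.

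**Figure D1:**
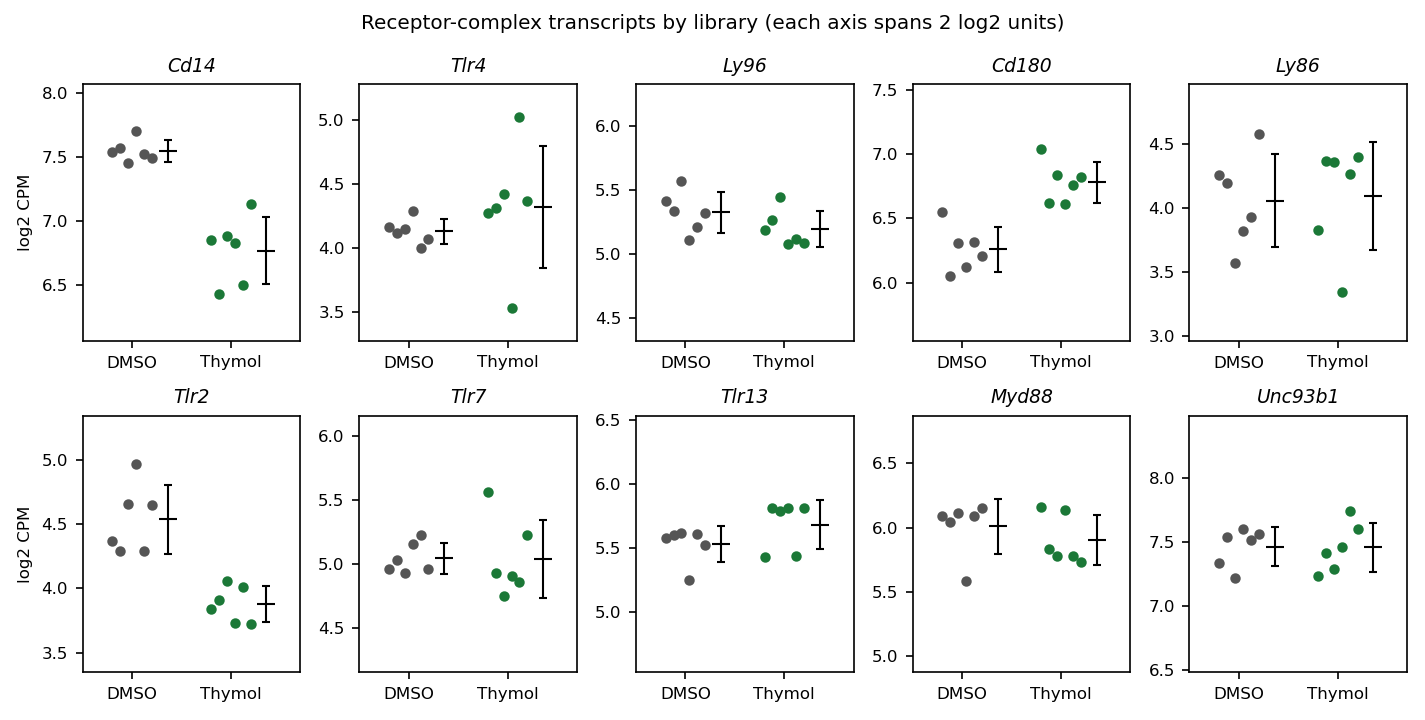
Level in log2 CPM (vertical axes, each spanning 2 log2 units at its own height) of the 10 transcripts in the 6 DMSO and 6 thymol libraries, with library numbers 1 to 6 from left to right in each group and the mean and SD drawn beside the points. The groups do not overlap for *Cd14*, *Cd180* and *Tlr2*, and thymol values of *Tlr4* spread from 3.53 to 5.02.

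The transcript of the LPS co-receptor *Cd14* (chromosome 18, 36725067 to 36726798, minus strand, GENCODE vM21 on GRCm38) ranged from 7.45 to 7.70 log2 CPM in the DMSO libraries, with a median of 7.53, and from 6.43 to 7.13 in the thymol libraries, with a median of 6.84. Every thymol library lay below every DMSO library. The log2 fold change was -0.78 ± 0.080 (SE, limma adjusted p = 7.3e-10), a ratio of 0.583. It was the fifth smallest p-value of the table and rested on 506 to 816 reads per thymol library and 1142 to 1401 per DMSO library. The thymol libraries also spread more, with an SD of 0.26 against 0.089. Replicates 2 and 5, at 6.43 and 6.50, were the lowest, and replicate 6, at 7.13, the highest. The fold change was -0.76 in the odd-numbered libraries alone and -0.80 in the even-numbered ones, and lay between -0.85 and -0.71 whichever library was left out.

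*Tlr4* (chromosome 4, 66827584 to 66930284, plus strand), the signaling receptor for LPS, showed another pattern. In the DMSO libraries its level lay in a narrow range from 4.00 to 4.29 log2 CPM, with a median of 4.13. In the thymol libraries it ran from 3.53 in replicate 4 to 5.02 in replicate 5, with a median of 4.34. The log2 fold change was 0.19 ± 0.17 (SE), with a 95% interval from -0.15 to 0.53, and the groups overlapped. Without thymol replicate 5, the deepest library, the difference was 0.049, and without thymol replicate 4 it was 0.35. In the odd-numbered libraries alone it was 0.47 and in the even-numbered ones -0.090, a contrast that was not tested. Counting error alone corresponds to an SD of 0.12 for the mean of 140 reads per thymol library, and the SD between the thymol libraries was 3.89 times that value, against 0.740 times for the DMSO libraries.

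The transcript of MD-2, *Ly96* (chromosome 1, 16688051 to 16709611, plus strand), ranged from 5.11 to 5.57 log2 CPM with DMSO and from 5.08 to 5.45 with thymol, with medians of 5.33 and 5.16. The groups overlapped. Its log2 fold change of -0.13 ± 0.11 (SE) had a 95% interval from -0.34 to 0.092. With 1 library left out it ranged from -0.18 to -0.079, the latter without DMSO replicate 3.

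*Cd180* (chromosome 13, 102693558 to 102739629, plus strand), which encodes RP105, was the 1 gene of the 10 that was higher with thymol past the threshold. Shown are the 250 bases before its RefSeq start site at 102693558 (chr13:102693308-102693557, plus strand, GRCm38.p6). *Cd180* was chosen for this because its change was opposite in sign to that of *Cd14* and *Tlr2*. Another RefSeq start site lies at 102693547, so that the last bases shown follow that site. The 250 bases shown hold no match to the NF-κB motif or to GAGGAA, a form of the site of the myeloid factor PU.1, on either strand. Shorter forms of that site were not searched for. The sequence is therefore in lower case throughout.
Cd180: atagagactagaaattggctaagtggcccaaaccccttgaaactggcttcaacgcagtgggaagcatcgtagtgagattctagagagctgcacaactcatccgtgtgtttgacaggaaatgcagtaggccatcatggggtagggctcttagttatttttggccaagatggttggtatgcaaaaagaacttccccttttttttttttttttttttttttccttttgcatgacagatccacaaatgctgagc

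The level of *Cd180* ranged from 6.05 to 6.55 log2 CPM with DMSO, with a median of 6.26, and from 6.61 to 7.04 with thymol, with a median of 6.79. The lowest thymol library lay above the highest DMSO library. The log2 fold change was 0.52 ± 0.083 (SE, limma adjusted p = 2.6e-05), a ratio of 1.44, on 459 to 984 reads per library. DMSO replicate 1 and thymol replicate 1 were each the highest of their group. The fold change was 0.49 in the odd-numbered libraries alone and 0.56 in the even-numbered ones, and ranged from 0.47 to 0.58 with 1 library left out. *Mast4* overlaps *Cd180* on the opposite strand, and the strand setting of the counting is not given in the sources used here. *Mast4* had 6.85 log2 CPM with DMSO and differed by 0.056 ± 0.072 (SE) between the groups, with a limma adjusted p of 0.852.

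The MD-1 transcript *Ly86* (chromosome 13, 37345208 to 37419036, plus strand), whose product RP105 needs at the cell surface, did not differ detectably. It ranged from 3.57 to 4.58 log2 CPM with DMSO and from 3.35 to 4.40 with thymol, with medians of 4.06 and 4.31. Its log2 fold change was 0.034 ± 0.18 (SE), and the 95% interval from -0.33 to 0.40 held changes in either direction. With 58 to 172 reads per library, *Ly86* was measured less precisely than *Cd180*. The fold change ranged from -0.064 to 0.18 with 1 library left out, so that its sign depended on the library.

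These transcripts were also set against each other within a library. The result is a balance between transcripts of a bulk culture and not between receptor proteins on a cell. *Cd14* exceeded *Cd180* by 1.29 ± 0.23 log2 units (SD, n = 6) in the DMSO libraries, with values from 0.99 to 1.59. In the thymol libraries the difference was -0.017 ± 0.24, with values from -0.27 to 0.31. The transcripts were thus at a ratio of 2.44 with DMSO and 0.988 with thymol, and the groups did not overlap. The difference between *Cd14* and *Tlr4* was 3.42 ± 0.073 with DMSO and 2.45 ± 0.61 with thymol, and no thymol library reached the lowest DMSO library, although thymol replicate 4 came close (3.30, the lowest DMSO value also being 3.30 at this rounding). *Cd180* exceeded its partner *Ly86* by 2.20 ± 0.40 with DMSO and 2.69 ± 0.43 with thymol, with overlapping ranges. *Ly96* exceeded *Tlr4* by 1.20 ± 0.20 with DMSO and 0.88 ± 0.47 with thymol, also with overlapping ranges. These balances are built from the changes given above and add no evidence to them.

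**Figure D2:**
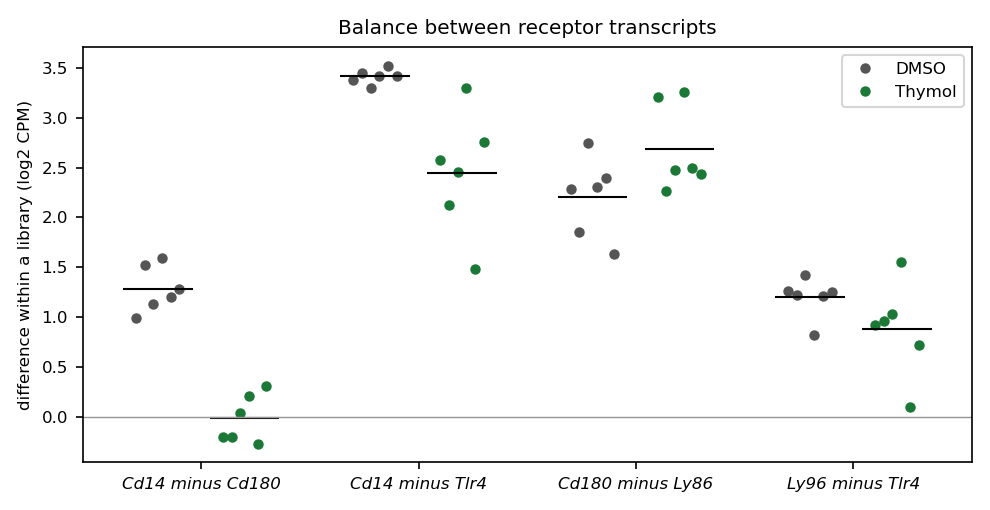
Difference in log2 CPM between pairs of receptor transcripts within a library (vertical axis), for 6 DMSO and 6 thymol libraries per pair, with horizontal lines at the means. *Cd14* minus *Cd180* moved from a mean of 1.29 to -0.017 without overlap, whereas *Cd180* minus *Ly86* and *Ly96* minus *Tlr4* overlapped.

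Among the other Toll-like receptors, *Tlr2* (chromosome 3, 83836272 to 83841767, minus strand) was lower with thymol. The 91 bases before its first annotated exon (chr3:83841768-83841858, minus strand, RefSeq, GRCm38.p6) are shown because they hold the 1 stretch with an NF-κB motif among the members searched. The capitals mark 3 overlapping matches to this motif on both strands, at positions -173 to -163 from the RefSeq start site.
Tlr2: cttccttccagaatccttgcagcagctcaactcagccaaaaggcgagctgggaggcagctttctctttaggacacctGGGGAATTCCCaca

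Both motifs were searched on both strands in the 250 bases before each RefSeq start site. The search covered 5 of the 10 members (*Cd180*, *Ly86*, *Tlr2*, *Tlr13* and *Myd88*). Chromosome 18 was left out of it, so that *Cd14* was not searched. The NF-κB motif was present in 1 of these 5, beside 4.4% of the 8529 promoters of genes measured here. GAGGAA was present in 1 of the 5, *Tlr13*, beside 22.5% of those promoters. A match describes the letters in this window and not the binding of a factor.

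*Tlr2* ranged from 4.29 to 4.97 log2 CPM with DMSO, with a median of 4.51, and from 3.72 to 4.06 with thymol, with a median of 3.88. All thymol values lay below all DMSO values. The log2 fold change was -0.66 ± 0.15 (SE, limma adjusted p = 0.0078), a ratio of 0.634, on 70 to 206 reads per library. In the odd-numbered libraries alone the fold change was -0.47 with an adjusted p-value of 0.513, and in the even-numbered ones it was -0.85 with an adjusted p-value of 0.039; the difference between these was not tested. With 10 CPM added before the logarithm the fold change was -0.43.

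The endosomal receptors were measured at 170 to 394 reads per library and did not pass the threshold. *Tlr7* (chromosome X, 167304929 to 167330558, minus strand) ranged from 4.93 to 5.23 log2 CPM with DMSO and from 4.75 to 5.56 with thymol, with a log2 fold change of -0.0052 (95% interval from -0.25 to 0.24). Thymol replicate 1 was its highest library and thymol replicate 3 its lowest. *Tlr13* (chromosome X, 106143204 to 106160493, plus strand), a receptor for bacterial ribosomal RNA, ranged from 5.25 to 5.62 with DMSO and from 5.43 to 5.81 with thymol. Of its thymol values, 4 lay between 5.79 and 5.81, above every DMSO value, and 2 (replicates 1 and 5) lay at 5.43 and 5.44. The log2 fold change was 0.15 (95% interval from -0.050 to 0.36). The odd-numbered libraries alone gave -0.051 for *Tlr13*.

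The shared components differed by less than the spread between libraries. *Unc93b1* (chromosome 19, 3935186 to 3949340, plus strand) ranged from 7.22 to 7.60 log2 CPM with DMSO and from 7.23 to 7.74 with thymol. With 966 to 1934 reads per library, its log2 fold change of -0.0063 had the narrowest 95% interval of the 10, from -0.15 to 0.14. *Myd88* (chromosome 9, 119335934 to 119341411, minus strand) ranged from 5.58 to 6.15 with DMSO and from 5.73 to 6.16 with thymol, with medians of 6.09 and 5.81. Its log2 fold change was -0.10 (95% interval from -0.30 to 0.092). Without DMSO replicate 4, the lowest library, it was -0.19. *Myd88* overlaps *Acaa1a* on the opposite strand, whose log2 fold change was 0.011 (limma adjusted p = 0.988). It also overlaps *Slc22a14* on its own strand, a gene absent from the values used here.

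**Figure D3:**
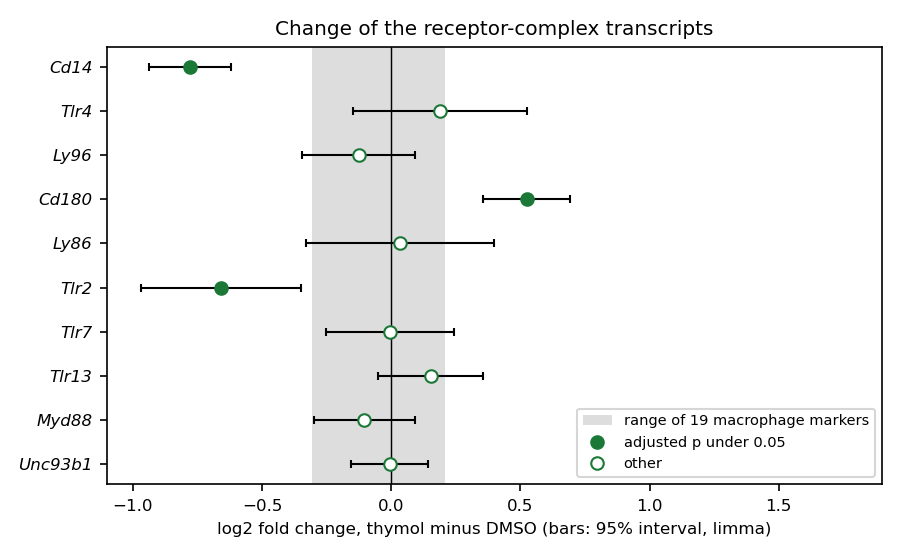
Log2 fold change, thymol minus DMSO, of the 10 transcripts (horizontal axis) with 95% intervals from limma, filled where the adjusted p-value over all genes is under 0.05; the gray band is the range of the 19 macrophage markers, from -0.31 to 0.21. *Cd14* and *Tlr2* lie left of the band and *Cd180* right of it, and the other 7 points lie within it.

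The 3 transcripts past the threshold were also set against the macrophage markers. With the mean of the 19 markers subtracted in each library, *Cd14* ranged from -0.84 to -0.55 with DMSO and from -1.81 to -1.13 with thymol, *Cd180* from -2.25 to -1.77 and from -1.64 to -1.32, and *Tlr2* from -4.01 to -3.29 and from -4.54 to -4.22. The groups stayed apart for each of the 3. The marker mean itself ranged only from 8.24 to 8.36 with thymol and from 8.25 to 8.32 with DMSO. Its subtraction could therefore move these values little, and the result is no separate test. Of the 19 markers themselves, 1 passed the threshold, the integrin gene *Itgam*, and their log2 fold changes ran from -0.31 to 0.21.

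The genes most alike in pattern were sought among 5387 genes with a mean of at least 5 log2 CPM, by the root mean square difference over the 12 libraries after subtraction of each gene's DMSO mean. For *Cd180* these were *Clec7a*, which encodes the β-glucan receptor dectin-1 (0.16 log2 units), *Trmt10a* (0.17) and *Mmp12*, macrophage metalloelastase (0.17), beside a median of 0.42 over the genes searched. For *Cd14* they were the desaturase gene *Scd2* (0.17), the phosphodiesterase gene *Pde4b* (0.21) and *Ntn4* (0.23), beside a median of 0.60. For *Tlr2* they were the desaturase gene *Fads2*, the pattern recognition gene *Ptx3* and the serpin gene *Serpinb9b*, at 0.19 to 0.20 beside 0.53. Since the measure holds the treatment difference, these genes are alike in their change, and nothing is drawn from it on shared control.

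Further genes of Toll-like receptor signaling were listed by role. Some of them, such as *Cxcl2*, *Il6* and *Clec4e*, were known to be lower in these data when the list was written, so their counts are a description. Of 118 listed genes 95 were in the table. Of these, 13 (13.7%) passed the threshold over all genes, 5 higher and 8 lower, with a median log2 fold change of -0.038 over the 95.

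Of the 9 further receptors and LPS-binding proteins in the table, 1 passed. *Itgam*, the CD11b chain of complement receptor 3, fell by 0.31 on the log2 scale (limma adjusted p = 0.00071), from 8.05 ± 0.068 to 7.74 ± 0.10 log2 CPM (SD, n = 6 each), without overlap. *Tlr1* and *Tlr6*, the dimer partners of TLR2, had log2 fold changes of -0.029 and 0.22 and did not pass.

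Of the 14 genes of receptor folding, trafficking and processing, 2 passed, both higher. They encode the lysosomal cathepsins S and B, proteases that act in endosomes. *Ctss* rose by 0.26 (limma adjusted p = 0.00014) and *Ctsb* by 0.19 (limma adjusted p = 0.0042). For both, 6 of 6 thymol libraries lay above every DMSO library. Over the 14 genes, 8 fold changes were above 0 and 6 below. *Hsp90b1*, given here outside the rule for naming genes, fell by 0.15 without overlap and did not pass (limma adjusted p = 0.060). It passed in some of the alternative settings, among them voom on the recovered reads.

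Of the 24 adaptors and kinases, from the bridging adaptors to the kinases upstream of NF-κB, 0 passed in limma and 2 had an unadjusted p-value under 0.05, beside 1261 of all 10697 genes; with voom on the recovered reads 0 passed as well. The most abundant of them, *Tab2*, which couples the TAK1 kinase to ubiquitin chains, had 7.49 log2 CPM with DMSO and a log2 fold change of 0.055 (95% interval from -0.073 to 0.18). The 24 fold changes ran from -0.30 to 0.48.

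Of the 16 brakes on receptor signaling, *Cd300lf*, an inhibitory receptor of myeloid cells, fell by 0.63 (limma adjusted p = 0.0086; -0.42 with 10 CPM added before the logarithm), and *Trem2*, a lipid-sensing receptor that dampens Toll-like receptor responses in macrophages, rose by 0.23 (limma adjusted p = 0.017). *Trem2* no longer passed without DMSO replicate 3 or thymol replicate 6, while its fold change lay between 0.20 and 0.25 whichever library was left out.

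Of the 15 transcription factors, 3 passed. *Fos*, an AP-1 subunit, fell by 0.77 (limma adjusted p = 0.00026), and *Cebpd*, a factor that amplifies LPS responses, fell by 0.38 (limma adjusted p = 0.0015). *Atf3*, a stress-induced factor that represses Toll-like receptor targets, rose by 0.42 (limma adjusted p = 0.039), but with 1 library left out it passed in 3 of 12 fits, with fold changes from 0.38 to 0.47.

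Of the 17 LPS-inducible transcripts in the table, 5 passed, 4 lower and 1 higher. The neutrophil chemokine *Cxcl2* had the largest difference of the listed genes, with a log2 fold change of -1.96 on a mean of 31.2 reads per thymol library, and *Clec4e*, the receptor Mincle, had -1.25. *Il6* fell by 0.77 and *Nfkbia*, the inhibitor that NF-κB induces, by 0.23. The limma adjusted p-values of these 4 were 8.4e-09, 3.5e-05, 0.0033 and 0.018, and *Nfkbia* no longer passed without DMSO replicate 1, thymol replicate 5 or thymol replicate 6 (fold changes from -0.26 to -0.20 over all 12 such fits). With 10 CPM added before the logarithm, *Cxcl2* had -0.96, *Clec4e* -0.65 and *Il6* -0.46, and all 3 still passed. *Ccl4*, a chemokine for monocytes and lymphocytes, rose by 0.43 (limma adjusted p = 0.0078). Without the mean-variance trend, 5 of the 95 genes passed: *Cd300lf*, *Fos*, *Il6*, *Cxcl2* and *Clec4e*.

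**Figure D4:**
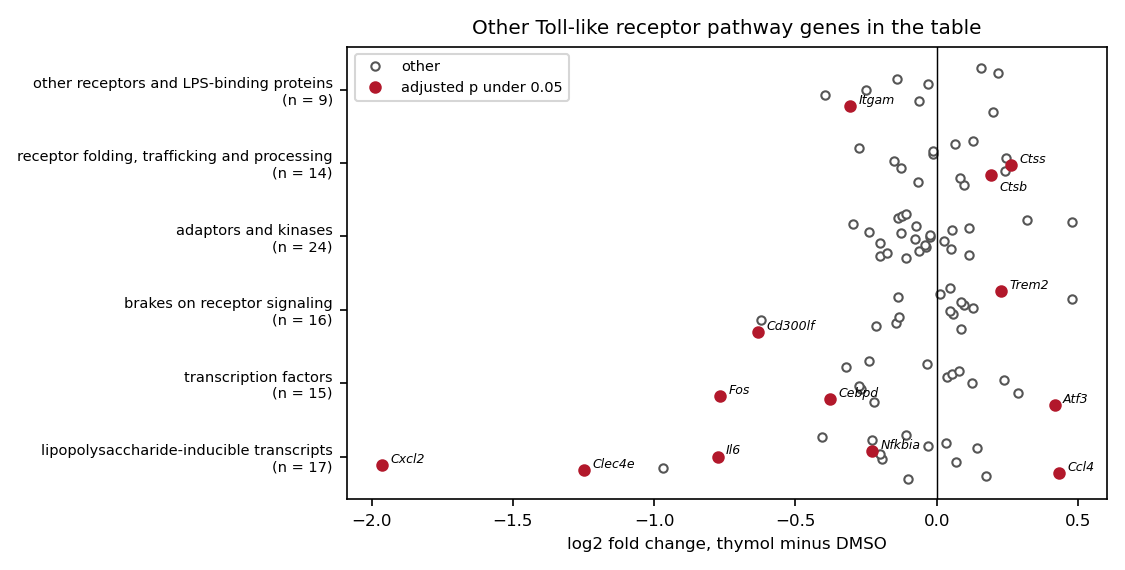
Log2 fold change, thymol minus DMSO (horizontal axis), of the 95 further Toll-like receptor pathway genes by role, with filled and named points where the limma adjusted p-value over all genes is under 0.05. None of the 24 adaptors and kinases is filled, and 4 of the 5 filled LPS-inducible transcripts lie below 0.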

How the data were processed

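QuantSeq libraries were made by the authors from 75 ng of total RNA with 20 cycles of PCR. Per the labels, reads were aligned to GRCm38 with STAR 2.5.3 and counted with HTSeq 0.6.1. The authors kept genes by a minimum of reads, applied trimmed-mean (TMM) scaling and deposited log2 CPM values that include a prior count, so that differences of weakly expressed genes are understated. The reads of each library were recovered from the equal steps of its low values (all values under 200 reads within 0.02 of a whole number). These reads carry no molecular identifiers, so they bound counting error alone.

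The log2 values of all 12 libraries were fitted with limma 3.58.1 in R 4.3.3 (lmFit and eBayes with a mean-variance trend, 2 groups, no covariate). The study's count model was not fitted here, and the recovered reads entered an alternative fit with voom. Two-sided p-values of 10697 genes received the Benjamini-Hochberg adjustment, and 0.05 was the threshold. The procedure was run on simulated counts drawn independently for each gene and library. Such counts hold no structure shared between libraries, so the run does not speak to any in the real ones. Alternatives were a fit without the trend, an added 10 CPM, a filter at a mean of 5 log2 CPM, median centring, quantile normalization, voom on the recovered reads, the replicate number as a block, odd- and even-numbered libraries, the macrophage markers as reference, and each library left out.

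The 10 genes and the gene lists were chosen with earlier results of these data known. All 10 genes were named, together with the listed pathway genes past the threshold, the most abundant gene of a role with none, and the 3 genes most alike each member past the threshold. Genes named outside this rule are said to be so or are given as counterparts of a member. Gene positions follow GENCODE vM21 (GRCm38). No pair of libraries within a group held the same reads (chi-square per degree of freedom of 4.18 to 12.1 over 30 pairs), which speaks only to duplicate deposits and not to whether libraries were separate cultures. Protein sequences were not used here.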

Additional observations from a re-analysis of the deposited data

Results flagged for a closer look

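Dixon's ratio, the distance of the end library from the next one as a share of the whole range, was taken for the 10 members and the macrophage marker mean in both groups of 6. Of these 22 ratios, 2 were past the 95% critical value, at 0.803 and 0.707, where chance gives about 1 in 20, or 1.1. Both were DMSO replicate 4. It held *Myd88* at 5.58 log2 CPM, beside 6.04 in the next lowest DMSO library, and *Tlr13* at 5.25, beside 5.52. The same library was also the highest DMSO library for 4 members (*Cd14*, *Tlr4*, *Tlr2* and *Unc93b1*) and the lowest for 3 (*Ly96*, *Tlr13* and *Myd88*). Without it, the log2 fold changes were -0.19 for *Myd88* and 0.097 for *Tlr13*, and *Tlr2* had -0.57 and its adjusted p-value of 0.042 was the highest met when single libraries were left out.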

How the results depend on the processing

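Across the settings, *Cd14* (log2 fold change from -0.85 to -0.71) and *Cd180* (0.47 to 0.58) kept their direction and stayed past the threshold in each of 23 alternatives. *Tlr2* did so in 21 of 22, was not past it in the odd-numbered libraries alone (-0.47) and was not tested above a mean of 5 log2 CPM. Over the whole table, 57 genes passed without the trend, 70 in the odd-numbered libraries alone and 172 to 270 with 1 library left out. Of the pathway genes, 5 passed without the trend, 4 in the odd-numbered and 6 in the even-numbered libraries alone, and 10 to 14 with 1 library left out; the smaller fits used fewer libraries. The members past the threshold stayed at 3 in all 12 fits with 1 library left out. Signs turned for members that did not pass the threshold. *Unc93b1* was 0.0074 with voom and 0.066 in the odd-numbered libraries, where *Tlr7* was 0.017 and *Tlr13* -0.051. In the even-numbered libraries *Tlr4* was -0.090 and *Ly86* -0.16, beside 0.47 and 0.23 in the odd-numbered ones. With 1 library left out, *Unc93b1* ranged from -0.063 to 0.039, *Tlr7* from -0.11 to 0.053, *Ly86* from -0.064 to 0.18 and the macrophage marker mean from -0.020 to 0.0046. For these turns the cause was not tested.

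With the replicate number as a block, 332 genes, 17 pathway genes and the same 3 members passed. Same-numbered libraries deviated together weakly (correlations from -0.051 to 0.27), and 1 of 6 DMSO libraries correlated best with its own number, so the numbers were not taken as pairs. The best matches alternated, however. DMSO replicates 1, 3 and 5 correlated best with thymol replicate 1, and DMSO replicates 2, 4 and 6 with thymol replicate 5. With odd or even number as a term in the fit, 277 genes, 15 pathway genes and the same 3 members passed. The cause of the alternation was not tested. Depth limits *Ly86*, *Tlr4* and *Tlr2*, with 58 to 291 reads per library.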

Other observations

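A pair of integrin α chains that share the β chain of *Itgb2* moved in opposite directions, a comparison chosen after the values were seen. *Itgam* (CD11b) was lower with thymol, as given above, whereas *Itgax* (CD11c) ranged from 4.49 to 5.02 log2 CPM with DMSO and from 5.13 to 5.39 with thymol, without overlap, which gave a difference of 0.45 ± 0.12 on the log2 scale (SE, limma adjusted p = 0.022). *Itgb2* had a log2 fold change of -0.062 (limma adjusted p = 0.830). *Itgax* was the 1 of 8 listed dendritic cell markers in the table and is also expressed by macrophages.

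*Irak3*, which encodes the inhibitory kinase IRAK-M, was also looked at after its value was seen. It ranged from 3.60 to 4.48 log2 CPM with DMSO and from 3.00 to 3.71 with thymol, with a log2 fold change of -0.62 ± 0.19 (SE) and a limma adjusted p-value of 0.060. It passed in 3 of 23 settings, among them the even-numbered libraries alone (-1.08), and was at -0.16 in the odd-numbered ones. The difference between these was not tested.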
